A study of Mus musculus with 3 samples.

Results

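Hepatocyte nuclei from the liver of mice on a MASLD diet were compared with hepatocyte nuclei from mice on a standard diet (SD) by single-nucleus RNA sequencing, which counts the RNA of each nucleus in unique molecular identifiers (UMIs). A barcode was taken as a hepatocyte nucleus if it held at least 1546 UMIs, at most 5% of them from mitochondrially encoded genes, and at most 2 UMIs summed over 9 genes of other liver cells. These genes were Stab2 and Ptprb (endothelium), Clec4f, Cd5l and Adgre1 (macrophages), Reln and Ntm (stellate cells), Skap1 (lymphocytes) and Gpm6a (mesothelium). The rule kept 6837 of 7139 barcodes in SD and 6032 of 6928 in MASLD, together 12869 of the 14067 barcodes of these libraries and of 21665 in the series.

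All mice were male C57BL/6N animals by the design text (the sample labels give C57BL/6), 8 weeks old at the start. The SD group ate a standard rodent diet. The MASLD group, named for metabolic dysfunction-associated steatotic liver disease, ate a custom diet made to induce it for 18 weeks, with a drink named as a sucrose solution but listed as 18.9 g/L D-glucose and 23.1 g/L fructose. The other MASLD-diet group was fed for the same time and received the DNA methyltransferase inhibitor Aza-TdC by gavage at 2 mg/kg daily from week 14 to week 18. It is used here only for values set beside the other libraries. Each library came from 120 mg of frozen liver, and its nuclei were sorted by flow cytometry on the DNA dye DAPI. There was 1 library per group. How many animals each came from was not stated in the sources at hand. No difference below could therefore be tested against the spread between animals.

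Hepatocytes take up fatty acids from blood, burn them in mitochondria and peroxisomes, store the surplus in lipid droplets and export it in lipoproteins. They also convert the ammonia from amino acid breakdown to urea, keep blood glucose up between meals and secrete most plasma proteins. These tasks are divided along the lobule: hepatocytes near the portal vein favour urea and glucose production, and those near the central vein favour detoxification and bile acid synthesis. In steatotic liver, droplets accumulate in the hepatocytes themselves.

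Levels are given as CPM, the UMIs of a gene as parts of the hepatocyte total of its library (43888919 UMIs in SD and 41364145 in MASLD) scaled to 1000000. A log2 ratio is MASLD over SD, and the 95% interval in parentheses covers counting error only. A gene was measured if it had at least 50 UMIs over both libraries, and it was counted as higher or lower if its level differed at least 2-fold. Of 14177 measured genes, 1759 were higher in MASLD (12.4%) and 577 were lower (4.07%), 16.5% in either direction. The median log2 ratio over all measured genes was 0.16. Scaling to the median ratio in place of the total shifted every log2 ratio by -0.14, to a median of 0.017. It gave 1434 higher and 752 lower genes, so the share of called genes that were higher went from 75.3% to 65.6%. Changes below are read against this shift.

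**Figure D1:**
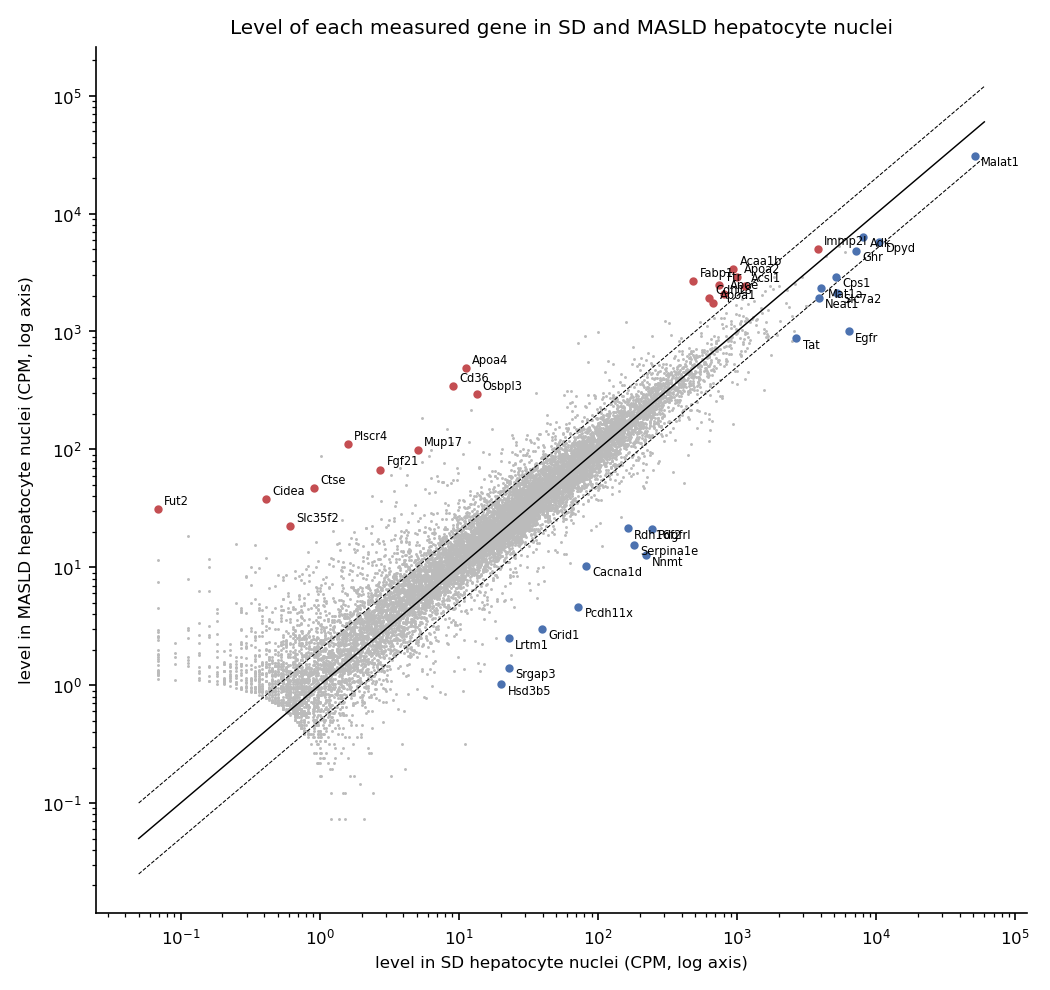
Level of each of the 14177 measured genes in SD (x axis) and MASLD (y axis) hepatocyte nuclei, in CPM on log axes. The solid line marks equal levels and the dashed lines a 2-fold difference. Named points are the genes with the largest CPM gains and the highest ratios (red) and the largest CPM losses and the lowest ratios (blue). Egfr (6391 against 1006 CPM) and Apoa4 (11.2 against 488 CPM) stand far from the line.

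The label was checked against the genes that define hepatocytes. All 14 hepatocyte markers were measured, with a summed level of 22147 against 19356 CPM (SD against MASLD, as in all pairs below) and a median log2 ratio of -0.13. Albumin (Alb) stood at 6023 against 4720 CPM and the nuclear receptor gene Hnf4a, a main regulator of hepatocyte identity, at 407 against 215 CPM. The 9 genes of the rule are among the markers of other cells and were capped by it, so that the low sums of these markers are partly fixed by the rule. Of the 15 macrophage markers, 11 were measured and 8 of these were higher in MASLD, and their summed level was 12.2 CPM in SD and 46.5 CPM in MASLD, led by Lyz2 (0.41 against 11.9 CPM). The 14 endothelial markers summed to 20.1 against 27.9 CPM and the 14 stellate markers to 35.6 against 30.8 CPM, with Nes and Acta2 at 0 in SD. Of the rule genes, Stab2 stood at 5.95 against 9.28 CPM and Reln at 16.0 against 4.91 CPM. The 10 cholangiocyte markers summed to 58.6 against 127 CPM, mostly Pkhd1, with Epcam at 0 in SD. The 13 lymphocyte markers summed to 11.4 against 64.8 CPM, nearly all of it Themis (6.99 against 59.6 CPM), while Skap1 stood at 1.03 against 0.363 CPM. None of the 7 neutrophil markers was measured (summed level 0.684 against 1.43 CPM), and Mmp8, Ly6g and Retnlg were at 0 in both libraries. The 8 mesothelial markers summed to 3.60 against 5.34 CPM and the 6 adipocyte markers to 0.911 against 4.30 CPM.

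The libraries also differed in measures of RNA quality and free RNA. Median depth was alike, 5912 UMIs per nucleus in SD and 6360 in MASLD, and 11 barcodes were shared between the libraries. The median share of mitochondrial UMIs was 0.124% in SD and 0.190% in MASLD, and 9 against 198 nuclei lay above 1%. Hemoglobin genes, the products of red cells, summed to 21.6 CPM in SD, 350.5 CPM in MASLD and 36.6 CPM in the Aza-TdC library. Ribosomal protein genes summed to 2816, 4579 and 2855 CPM and mitochondrially encoded genes to 1255, 2545 and 871 CPM in the same order. Genes with an annotated span under 3 kb had a median log2 ratio of 0.41, with 21.6% higher, and genes over 100 kb a median of 0.10, with 12.4% higher. The part of free RNA in the short, abundant genes named below was not tested. In nuclei with 0 hemoglobin UMIs (6025 in SD, 1264 in MASLD), a selection made after seeing the data, 1395 genes were higher and 521 lower of 12884 measured. Barcodes left out only for UMIs of other cell types (302 in SD and 367 in MASLD, median 2489 and 2831 UMIs) are used as a background, called background barcodes below, for the share of nuclei with at least 1 UMI of a gene. They can hold nuclei of other cells that express the gene themselves, so a high share there does not show free RNA. A share read as background below is one not taken as expression in hepatocytes, and its source was not tested. For all such shares each barcode was thinned at random to 1546 UMIs. At the limits of the rule, 211 SD and 136 MASLD nuclei held 2 UMIs of the 9 genes and were kept, and 56 and 55 barcodes held 3 and were left out. The lowest UMI totals inside were 1546 and 1547, and the highest outside, in MASLD, was 1545. The highest mitochondrial share inside was 4.85% and the lowest outside 5.03%, both in MASLD.

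The start regions of 4 genes with a motif match are shown. Of these, 3 belong to the genes discussed next as higher in MASLD (the fatty acid carrier Fabp1 and the secreted stress hormones Fgf21 and Gdf15), and the last, the glycolytic gene Pklr, was lower. They do not stand for all windows searched. Those of Egfr, Cd36 and Cidec, also discussed below, and of the first annotated start of Pklr held none of the motifs. Each of the 4 regions shown holds letters of a motif known for a nutrient-sensing factor. The sequences are RefSeq promoters of GRCm38.p6, from 250 bases before to 50 after an annotated start, written 5′ to 3′ on the gene's strand, with the motif letters found in capitals. Fabp1 lies at chr6:71199629-71199928 on the plus strand, Fgf21 at chr7:45615441-45615740 on the minus strand, Gdf15 at chr8:70632407-70632706 on the minus strand and the second annotated start of Pklr at chr3:89136373-89136672 on the plus strand.
Fabp1: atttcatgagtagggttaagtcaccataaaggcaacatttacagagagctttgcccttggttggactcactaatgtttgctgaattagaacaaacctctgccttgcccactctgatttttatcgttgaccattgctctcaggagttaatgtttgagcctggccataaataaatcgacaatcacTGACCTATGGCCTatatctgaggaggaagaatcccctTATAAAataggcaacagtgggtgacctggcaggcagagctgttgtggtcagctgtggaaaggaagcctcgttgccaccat
Fgf21: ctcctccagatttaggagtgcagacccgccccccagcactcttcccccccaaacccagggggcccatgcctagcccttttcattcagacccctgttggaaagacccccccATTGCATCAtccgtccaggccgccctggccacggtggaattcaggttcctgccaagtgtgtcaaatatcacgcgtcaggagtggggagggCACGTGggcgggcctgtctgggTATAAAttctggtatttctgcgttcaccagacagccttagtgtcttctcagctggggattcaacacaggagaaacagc
Gdf15: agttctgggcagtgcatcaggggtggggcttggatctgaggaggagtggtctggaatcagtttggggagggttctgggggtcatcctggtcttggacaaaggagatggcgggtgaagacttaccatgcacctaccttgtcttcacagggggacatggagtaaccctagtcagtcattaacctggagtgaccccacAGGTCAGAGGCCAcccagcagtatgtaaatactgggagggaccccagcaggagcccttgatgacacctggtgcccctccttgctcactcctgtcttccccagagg
Pklr: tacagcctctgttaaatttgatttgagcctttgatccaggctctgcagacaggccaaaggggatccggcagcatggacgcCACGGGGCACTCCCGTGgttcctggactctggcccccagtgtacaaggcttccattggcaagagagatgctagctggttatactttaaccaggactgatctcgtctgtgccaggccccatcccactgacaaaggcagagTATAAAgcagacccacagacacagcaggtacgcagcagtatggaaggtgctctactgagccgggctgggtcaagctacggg

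The capitals in Fabp1 mark TGACCTATGGCCT, which begins 67 bases before the start, and a TATA box 30 bases before it. The first is a match on the reverse strand to a direct repeat of 2 half-sites AGGNCA that lie 1 base apart, the kind of element that nuclear receptors such as PPAR alpha bind. Gdf15 holds the same kind of repeat, AGGTCAGAGGCCA, 55 bases before its start. Searched on both strands, the repeat was present in 0.340% of the 10574 measured genes with a promoter matched by symbol (of 14177), in 6 of 1221 higher genes (0.491%) and in 0 of 395 lower genes. Fgf21 holds ATTGCATCA, the amino acid response element that the factor ATF4 binds, 140 bases before its start. That element was in 0.151% of promoters, and Fgf21 and Nupr1 were the higher genes that held it. Fgf21 also has CACGTG (an E-box, in 11.6% of promoters) and TATAAA (in 9.62%). Pklr holds CACGGGGCACTCCCGTG, a match to the carbohydrate response element that ChREBP binds, searched as CACGNG and CNCGTG with 5 bases between, 170 bases before its second start. This was found in 6 promoters (0.0567%), of which 1 belonged to a higher and 2 to a lower gene. The E-box can lie inside a carbohydrate response element match, and a match here is a description of letters, not of binding.

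Of the 22 lists, fat uptake and storage had the highest median ratio. Counts in every list below stand beside 12.4% higher and 4.07% lower over all measured genes. A count near these shares is not read as a result about its list. Of 30 lipid droplet and fatty acid uptake genes, 18 were higher and 0 lower, with a median log2 ratio of 1.75, against 0.16 over all measured genes. The 18 include Cd36, Fabp1, Fabp2 and Lpl, whose shares of MASLD nuclei are not read below as expression per nucleus. Cd36, the membrane protein that takes up long-chain fatty acids, stood at 9.07 CPM (8.20 to 10.0) in SD and 342 CPM (336 to 347) in MASLD, a log2 ratio of 5.24 (5.09 to 5.38). Its annotated span is chr5:17781690-17888801 on the minus strand of GRCm38. Cidea and Cidec, which fuse small droplets into larger ones, stood at 0.41 against 37.8 CPM and at 12.3 against 215 CPM. Lpl, which releases fatty acids from circulating lipoproteins and is low in adult hepatocytes, stood at 0.159 against 6.26 CPM. A Lpl UMI was seen in 0.812% of MASLD hepatocyte nuclei and in 14.4% of background barcodes, so that this share is read as background. The intestinal-type fatty acid binding protein gene Fabp2 stood at 3.81 against 68.8 CPM, and its share in MASLD, 10.1% of hepatocyte nuclei and 15.5% of background barcodes, is read the same way. The droplet coat gene Plin2 was at 146 against 434 CPM, and the droplet-linked lipase relative Pnpla3 at 3.53 against 35.8 CPM. Of the 30 genes, 26 had a log2 ratio above 0. Among the others, Dgat2, the last step of triglyceride synthesis, stood at 544 against 337 CPM and Mgll, which splits monoacylglycerol, at 704 against 490 CPM.

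In absolute level the largest gains were in abundant genes. Acaa1b, a thiolase of peroxisomal fatty acid oxidation, gained most, from 939 CPM (930.4 to 949) in SD to 3398 CPM (3380.1 to 3416) in MASLD. Fabp1, the main fatty acid carrier of hepatocyte cytosol, went from 485 to 2662 CPM. Acsl1, which couples fatty acids to coenzyme A, went from 1133 to 2430 CPM (log2 ratio 1.10, and 0.96 with median-ratio scaling). The other large gains were in apolipoproteins and a thyroid hormone carrier: Apoa2 (1004 to 2876 CPM), Ttr (739 to 2469 CPM), Apoe (803 to 2095 CPM) and Apoa1 (675 to 1751 CPM). Cdh18, a cadherin gene with a span over 100 kb, went from 626 to 1905 CPM, and Immp2l, a mitochondrial peptidase gene, from 3802 to 5018 CPM. The apolipoprotein genes and Fabp1 are short and abundant, and in nuclei with 0 hemoglobin UMIs the log2 ratio of Apoa2 was 1.26 against 1.52, that of Apoe 1.20 against 1.38 and that of Fabp1 2.28 against 2.46. That of Acaa1b was 1.90 against 1.85.

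Of 31 peroxisome genes measured, 4 were at least 2-fold higher and 0 lower, beside 12.4% and 4.07% of all measured genes, with a median log2 ratio of 0.55. Ehhadh, the bifunctional enzyme of peroxisomal beta-oxidation, stood at 57.1 against 289 CPM (log2 ratio 2.34, 2.27 to 2.40), Pex11a, which drives peroxisome division, at 120 against 387 CPM, and Abcd2, an importer of very long chain fatty acids, at 16.3 against 42.0 CPM. Catalase (Cat) stood at 547 against 923 CPM, a difference under 2-fold. Mitochondrial dynamics and biogenesis genes had a median of 0.08. Of 25 measured, 2 were higher, Ucp2 (0.456 against 4.21 CPM), an inner membrane carrier, and Nnt (13.8 against 33.2 CPM), which makes NADPH. Nnt carries 2 gene entries of the same symbol, and the value is that of the entry with UMIs.

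Of 25 phospholipid genes 6 were higher and 2 lower, with a median of 0.59. Gpam, the first step of glycerolipid synthesis, stood at 205 against 597 CPM and Tmem86a, which breaks down lysoplasmalogens, at 0.251 against 15.6 CPM. Lpin1, which makes diacylglycerol and also acts as a coactivator in the nucleus, was lower, at 2578 against 1018 CPM, and so was Etnk2, an ethanolamine kinase, at 709 against 255 CPM. Of 23 sphingolipid genes 4 were higher and 0 lower (median 0.34), among them Sptlc2, a subunit of the enzyme that starts ceramide synthesis, at 34.0 against 96.6 CPM and Smpd3, a neutral sphingomyelinase, at 0.615 against 2.22 CPM. Beside 12.4% higher of all measured genes, the sphingolipid count is not read as a result about that list.

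**Figure D2:**
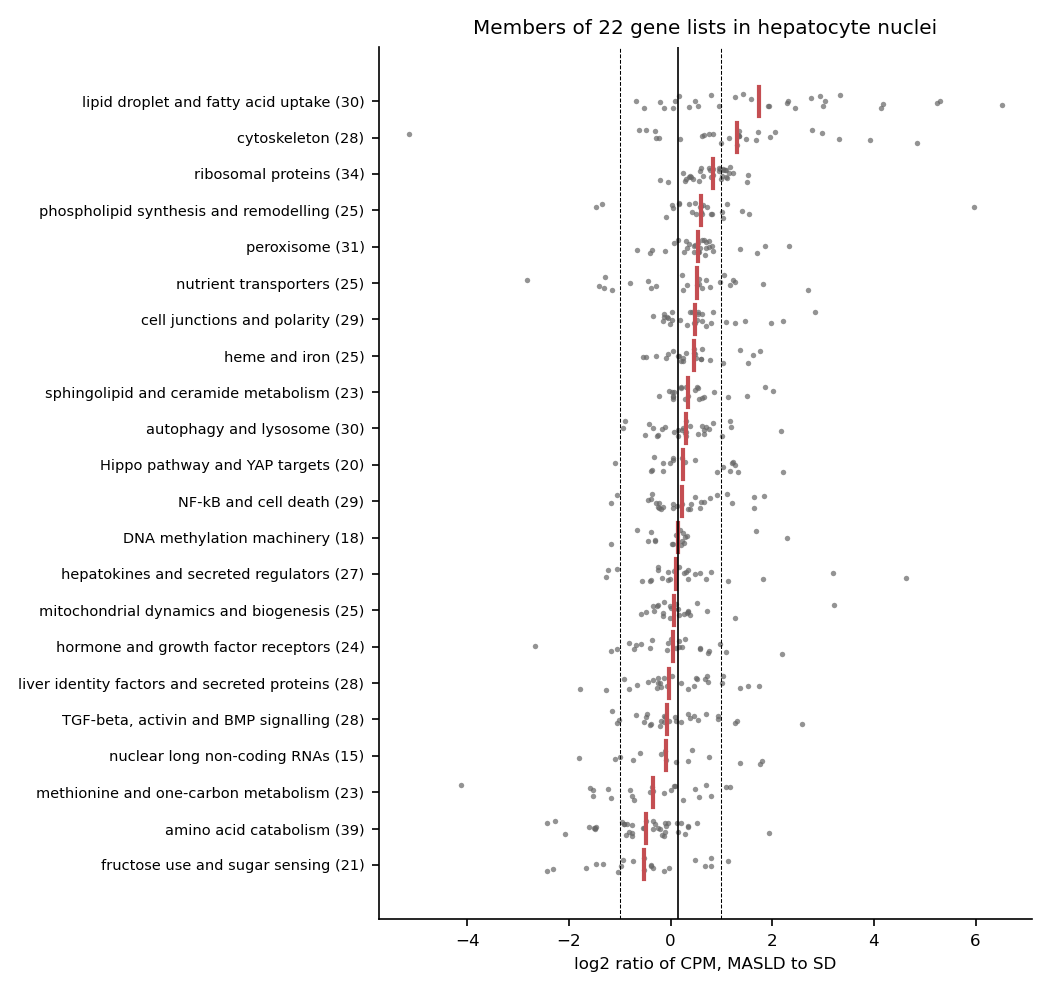
Log2 ratio of MASLD to SD level (x axis) for the measured members (grey points) of 22 gene lists in hepatocyte nuclei, with the number measured in parentheses and the list median in red. The solid vertical line is the median over all measured genes (0.16) and the dashed lines mark 2-fold. Lists run from lipid droplet genes (median 1.75) at the top to fructose use and sugar sensing (median -0.51) at the bottom.

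Of 21 genes for fructose use and sugar sensing, 6 were at least 2-fold lower and 1 higher, beside 4.07% lower of all measured genes, with a median log2 ratio of -0.51. Among the genes that carry fructose into glycolysis, Khk, the fructose kinase, stood at 297 against 118 CPM and Tkfc, the triose kinase, at 445 against 89.2 CPM. Pklr, the liver pyruvate kinase shown above, stood at 631 against 200 CPM. Acly, which makes cytosolic acetyl-coenzyme A from citrate for fat synthesis, stood at 345 CPM (339 to 350.4) against 64.1 CPM (61.6 to 66.6), a log2 ratio of -2.43 (-2.49 to -2.37). Fatty acid synthase (Fasn) was at 142 against 72.7 CPM and Mlxipl, which encodes ChREBP, at 2042 against 1224 CPM, both under 2-fold. These lower levels were found in animals whose drink held glucose and fructose. Pfkfb1, which sets fructose 2,6-bisphosphate, was the 1 higher member, at 128 against 279.9 CPM.

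Of 39 amino acid catabolism genes, 8 were lower and 1 higher (median -0.48), and the other 30 differed by less than 2-fold. Got1, the cytosolic aspartate aminotransferase, stood at 632 against 118 CPM (log2 ratio -2.42, -2.47 to -2.38). Ass1 and Asl, consecutive urea cycle enzymes, stood at 1556 against 321 CPM and 784 against 283 CPM, and Cps1, which opens the cycle, at 5140 against 2905 CPM. Gls2, the liver glutaminase, was at 471 against 111 CPM and Tat, which starts tyrosine breakdown, at 2669 against 879 CPM. The 1 higher member was Csad, which makes taurine precursors, at 60.5 against 230 CPM. Arg1, the last enzyme of the urea cycle, differed little over all nuclei (1044 against 879 CPM, log2 ratio -0.25 with an interval of -0.27 to -0.23).

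The methionine and one-carbon list had 6 lower and 2 higher genes of 23 (median -0.35). Nnmt, which uses up S-adenosylmethionine to methylate nicotinamide, had the lowest ratio of its list, from 221 CPM (216 to 225) in SD to 12.6 CPM (11.6 to 13.8) in MASLD. Gnmt, which disposes of surplus S-adenosylmethionine, stood at 2485 against 831 CPM, Cbs and Cth, which turn homocysteine into cysteine, at 172 against 59.6 CPM and 197 against 84.2 CPM, and Mat1a, which makes S-adenosylmethionine, at 4033 against 2337 CPM. The DNA methyltransferase gene Dnmt1, named in the study's title, stood at 7.72 CPM (6.92 to 8.59) in SD and 9.11 CPM (8.22 to 10.1) in MASLD, a log2 ratio of 0.24 (0.02 to 0.45). That is close to the median of all genes. Of 18 genes of the DNA methylation machinery 2 were higher, the stress genes Gadd45a (1.44 against 7.04 CPM) and Gadd45b (2.96 against 9.55 CPM), and their relative Gadd45g was lower (109 against 48.1 CPM, and within 2-fold in nuclei with 0 hemoglobin UMIs). Beside 12.4% higher and 4.07% lower of all measured genes, these counts are not read as a result about the list.

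Among receptors, Egfr, the epidermal growth factor receptor that hepatocytes carry in large number, had the largest loss in CPM among the named protein-coding genes. It stood at 6391 CPM (6368 to 6415) in SD and 1006 CPM (996 to 1015) in MASLD, a log2 ratio of -2.67 (-2.68 to -2.65), and lies at chr11:16752203-16918158 on the plus strand. The antisense gene Egfros within this span stood at 107 against 15.2 CPM, and the strand handling of the counting is unknown here. The fibroblast growth factor receptor gene Fgfr4 stood at 93.0 against 41.4 CPM, the prolactin receptor gene Prlr at 405 against 195 CPM and the growth hormone receptor gene Ghr at 7171 against 4820 CPM. The leptin receptor gene Lepr (36.0 against 76.6 CPM) was at least 2-fold higher by total scaling (log2 ratio 1.09) and not by median-ratio scaling (0.95). Over the 24 receptors 2 were higher and 3 lower, and the median of 0.06 turned to -0.08 with median-ratio scaling and -0.12 in nuclei with 0 hemoglobin UMIs.

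Of 27 secreted regulators, 4 were higher and 3 lower (median 0.12). Fgf21, a hormone released under metabolic stress, stood at 2.73 against 67.4 CPM, Gdf15, a stress hormone acting on appetite, at 6.27 against 57.3 CPM, and Inhbe, an activin subunit, at 27.7 against 97.0 CPM. Hgfac, which activates hepatocyte growth factor, was lower (160.0 against 66.6 CPM), as were Agt, angiotensinogen (85.4 against 36.5 CPM) and the iron hormone Hamp (1944 against 933 CPM). Igf1, the main mediator of growth hormone, stood at 1249 against 849 CPM. Of 25 heme and iron genes 5 were higher and 0 lower, among them both ferritin chains, Fth1 (94.2 against 289.9 CPM) and Ftl1 (221 against 571 CPM), and Hmox1, which degrades heme (1.82 against 6.19 CPM). The hemoglobin values given above moved in the same direction as these genes, and the list's median went from 0.45 to 0.32 in nuclei with 0 hemoglobin UMIs.

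Of 25 transporters, 6 were higher and 5 lower. Lower ones that carry amino acids were Slc7a2 (arginine and other cationic amino acids) at 5240.0 against 2119 CPM, Slc38a2 (small neutral ones) at 755 against 284 CPM and Slc43a1 (large neutral ones) at 9.30 against 1.31 CPM. Higher ones included the water channel gene Aqp8 at 2.57 against 16.8 CPM and the citrate carrier gene Slc13a5 at 1.12 against 3.92 CPM. The median over genes was 0.52, although Slc7a2, the most abundant of those named, was lower.

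Of 28 cytoskeleton genes 16 were higher and 1 lower (median 1.32), led by S100a11 (0.296 against 8.49 CPM), a calcium-binding protein gene, and Anxa2 (0.570 against 8.65 CPM), which links membranes to actin. In MASLD a UMI of S100a11 was seen in 1.28% of hepatocyte nuclei and 6.54% of background barcodes, and one of Anxa2 in 1.21% and 8.45%. These shares are read as background. Tmsb4x, another member, was seen in 3.88% and 28.1%. Macrophages also express such genes, and the part of the macrophage markers given above (12.2 against 46.5 CPM) in these values was not tested. Avil, an actin-binding protein gene, was the lower one (11.1 against 0.314 CPM). Most of the higher members are short genes: with spans of at least 10 kb alone the median was 0.40. Of 29 junction genes 6 were higher and 0 lower (median 0.49), among them the adhesion gene Cdh1 (0.820 against 5.90 CPM) and the tight junction genes Cldn1 (2.46 against 11.4 CPM) and Cldn2 (4.15 against 16.3 CPM). These are also expressed by bile duct cells, whose markers were given above and whose part in these values was not tested.

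Of 20 Hippo pathway genes and YAP targets 7 were higher and 1 lower (median 0.25, and 0.058 with at least 200 UMIs over both libraries). Axl, a receptor kinase gene also found in macrophages, stood at 0.251 against 1.16 CPM from 11 and 48 UMIs. In MASLD it was seen in 0.216% of hepatocyte nuclei and 14.2% of background barcodes. The coactivator gene Wwtr1 stood at 53.1 against 120 CPM. The YAP targets Ccn1 and Ccn2 came just within 2-fold when each nucleus weighed the same (log2 ratios 0.998 and 0.963). Of 28 TGF-beta, activin and BMP genes 3 were higher and 3 lower (median -0.07), with the signal carrier gene Smad3 at 99.8 against 48.2 CPM. Of 29 NF-kB and cell death genes 5 were higher and 2 lower (median 0.22), with the death receptor gene Fas at 12.9 against 40.1 CPM and the necroptosis gene Mlkl at 2.89 against 10.3 CPM. Of 30 autophagy and lysosome genes 4 were higher and 0 lower (median 0.30), led by Lipa, the lysosomal lipase, at 43.2 against 195 CPM. Beside 12.4% higher of all measured genes, the counts of higher TGF-beta, NF-kB and autophagy genes are not read as results about these lists.

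Liver identity factors gave 5 higher and 2 lower of 28 (median -0.02). The higher ones included the secreted proteins Ttr, Apoa1 and Apoa2. The lower ones were transcription factor genes, Onecut1 (517 against 150.4 CPM, log2 ratio -1.78) and Foxa3 (133 against 55.1 CPM). Of 34 ribosomal protein genes 13 were higher and 0 lower (median 0.84, and 0.72 in nuclei with 0 hemoglobin UMIs). Malat1, a long non-coding RNA kept in the nucleus, made up 5.14% of SD and 3.10% of MASLD UMIs (51435 against 30951 CPM), and Neat1, the scaffold of paraspeckles, stood at 3858 against 1935 CPM. The Malat1 log2 ratio was -0.73, and -0.43 in nuclei at or under the SD median mitochondrial share. Of 15 long non-coding RNAs 3 were higher and 2 lower, with Airn, the antisense RNA of the imprinted Igf2r gene, at 68.7 against 233 CPM and Meg3, another imprinted RNA, at 9.48 against 2.71 CPM. The median of -0.10 turned to 0.06 in nuclei with 0 hemoglobin UMIs. Malat1 outweighs the other members in summed level.

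A difference in a library total can come from a few nuclei or from most of them. At 1546 UMIs per nucleus Egfr had a median of 9 UMIs per nucleus in SD (5th to 95th percentile 3 to 19) and 1 in MASLD (0 to 5), and 0.647% of MASLD nuclei reached the SD median. The share of nuclei with an Egfr UMI was 99.7% in SD and 69.0% in MASLD, and 90.4% and 22.3% in background barcodes. Tat had a median of 4 UMIs in SD and 1 in MASLD, and its share went from 96.7% to 62.8%. Of MASLD nuclei 9.83% reached the SD median of Tat. The lower levels of Egfr and Tat were thus found in most MASLD nuclei.

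Acaa1b was seen in 70.2% of SD and 97.3% of MASLD nuclei, with medians of 1 and 5 UMIs, and Fabp1 in 52.1% and 95.2%, with medians of 1 and 4. In background barcodes Fabp1 was seen in 51.0% and 95.6%, and Apoa2 in 84.8% and 96.7% (78.4% and 96.4% in hepatocyte nuclei). Apoe was seen in 74.2% and 98.9% of background barcodes (71.1% and 94.4% in hepatocyte nuclei). Ttr was seen in 64.9% and 92.4% of them (67.5% and 94.3% in hepatocyte nuclei). The shares of Fabp1, Apoa2, Apoe and Ttr in hepatocyte nuclei therefore lay close to that background or below it and are not read as expression per nucleus. In MASLD these shares lay between 92.4% and 98.9% in both kinds of barcode, where shares can hardly differ. They therefore cannot separate expression in hepatocytes from background, and UMIs per barcode were not compared. The MASLD share of Apoa1 lay above that of background barcodes, at 88.8% against 78.7%. Acaa1b was seen in 37.4% and 72.5% of background barcodes.

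**Figure D3:**
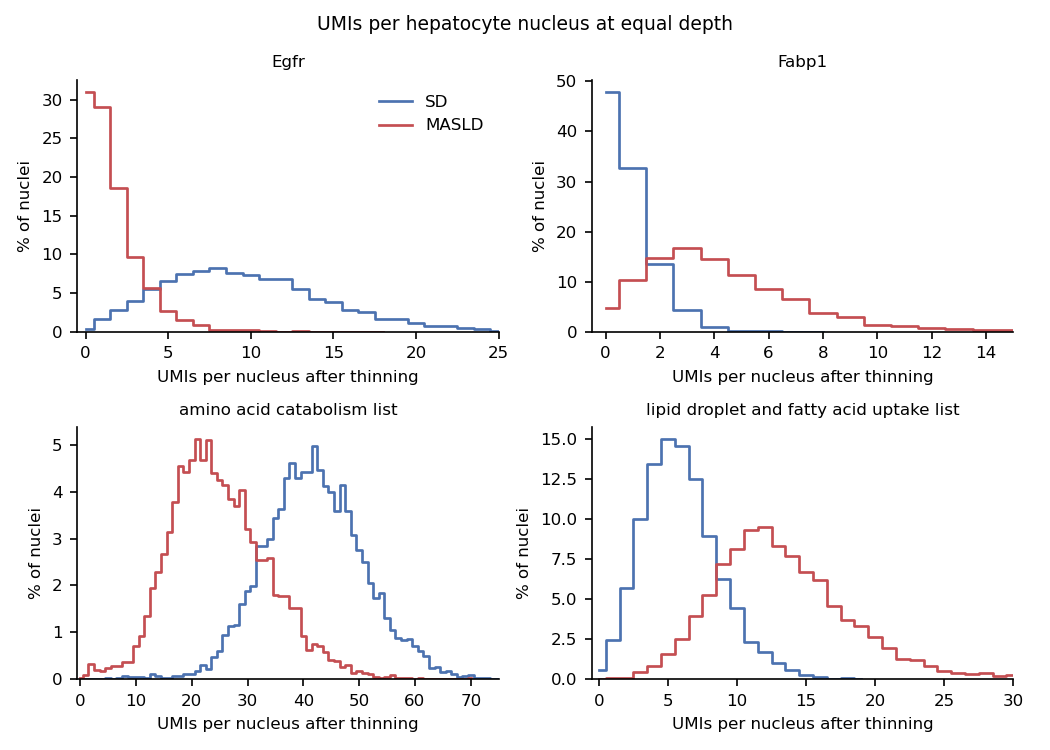
Share of hepatocyte nuclei (y axis, %) by the number of UMIs per nucleus (x axis) after thinning each to 1546 UMIs, in SD (blue) and MASLD (red), for Egfr, Fabp1, the amino acid catabolism list and the lipid droplet and fatty acid uptake list. The distributions of the libraries are shifted against each other, with medians of 42 and 24 UMIs for amino acid catabolism and 6 and 13 for lipid droplet genes. The lipid droplet list includes Fabp1.

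The lipid droplet list had a median of 6 UMIs per nucleus in SD and 13 in MASLD, and 60.6% of MASLD nuclei lay above the 95th percentile of SD. Fabp1, whose shares are not read above as expression per nucleus, is a member of this list. Its mean was 0.795 UMIs per nucleus in SD and 4.34 in MASLD, beside 5.95 and 13.3 for the whole list. The amino acid catabolism list had medians of 42 and 24, and 64.3% of MASLD nuclei lay below the 5th percentile of SD. The peroxisome list had medians of 14 and 23, and 51.8% of MASLD nuclei lay above the 95th percentile of SD. For methionine and one-carbon genes the medians were 15 and 8, for receptors 28 and 17 and for transporters 16 and 8. Egfr gave 6391 of the 19061 CPM summed over receptors in SD and Slc7a2 gave 5240.0 of the 10275 CPM summed over transporters, and the median log2 ratios of these lists were 0.06 and 0.52. Mat1a and Gnmt gave 4033 and 2485 of the 9789 CPM summed over methionine and one-carbon genes in SD. The median log2 ratio of that list was -0.35. Other lists differed little: the medians were 13 and 14 UMIs for phospholipid genes, 3 and 3 for sphingolipid genes, 5 and 5 for mitochondrial dynamics, 9 and 9 for heme and iron and 2 and 2 for the cytoskeleton.

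Apoa4, an apolipoprotein of large lipoproteins, was seen in 1.71% (1.42 to 2.05) of SD and 44.9% (43.6 to 46.1) of MASLD nuclei (6.13% and 80.1% without thinning), Cd36 in 0.995% and 36.2%, and Osbpl3, a sterol-binding protein gene, in 2.05% and 34.5%. In the background barcodes Apoa4 was seen in 0.662% and 37.6% and Osbpl3 in 3.31% and 12.3%. Cd36 was seen there in 8.28% and 36.2%, and endothelial cells and macrophages also express it. The Cd36 share in MASLD thus lay at that of background barcodes and is not read as expression per nucleus. The Apoa4 share lay above that of background barcodes, at 44.9% against 37.6%, and the part of background in it was not tested. The Osbpl3 share lay well above that of background barcodes, at 34.5% against 12.3%. Cidec was seen in 1.58% and 25.4% of hepatocyte nuclei against 0.331% and 10.9% of background barcodes, Fgf21 in 0.541% and 8.65% against 0.662% and 2.18%, and Cidea in 0.0585% and 4.51% against 0 of 302 (which by the floor of 3 counts allows up to 0.993%) and 1.36%.

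**Figure D4:**
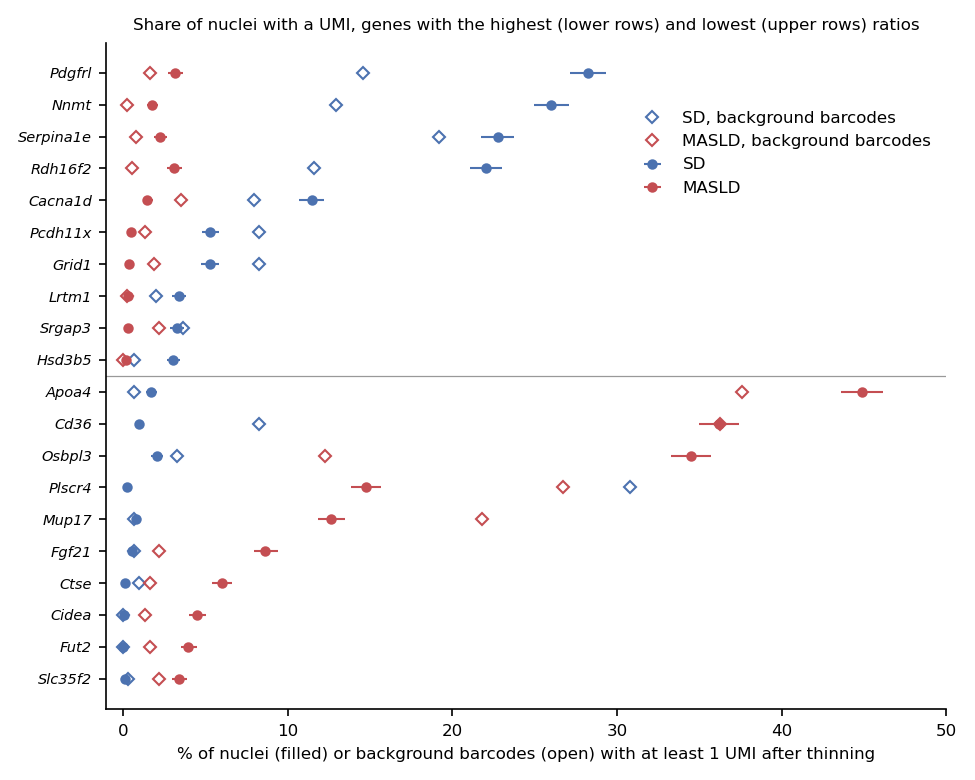
Share of hepatocyte nuclei with at least 1 UMI after thinning (x axis, %), with exact 95% intervals for counting error, in SD (blue) and MASLD (red). Open diamonds are the shares in background barcodes. The lower rows show the 10 genes with the highest and the upper rows the 10 genes with the lowest ratios. Apoa4 reaches 44.9% of MASLD nuclei beside 37.6% of background barcodes, and Nnmt goes from 26.0% of SD to 1.76% of MASLD nuclei. The MASLD shares of Cd36, Plscr4 and Mup17 and the SD shares of Pcdh11x, Grid1 and Srgap3 lie at or below those of background barcodes.

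Among genes with the lowest ratios, Nnmt was seen in 26.0% of SD and 1.76% of MASLD nuclei, Pdgfrl, a receptor-like gene, in 28.2% and 3.15%, and Cacna1d, a calcium channel gene, in 11.5% and 1.49%. In background barcodes these shares were 12.9% and 0.272%, 14.6% and 1.63%, and 7.95% and 3.54%, so that the MASLD share of Cacna1d is read as background. Hsd3b5, a steroid-metabolising enzyme gene that is high in male mouse liver, was seen in 3.04% and 0.166%, against 0.662% of SD background barcodes. Serpina1e (182 against 15.5 CPM) and the urinary protein gene Mup17 (5.06 against 98.6 CPM) each have near-identical copies, so that their values are uncertain. Mup17 was seen in 12.6% of MASLD hepatocyte nuclei and 21.8% of background barcodes. The remaining genes with the highest ratios were Fut2, a fucosyltransferase (0.0684 CPM from 3 UMIs in SD against 30.9 CPM, log2 ratio 8.82 with an interval of 7.27 to 11.10), Plscr4, a scramblase (1.59 against 110.2 CPM, seen in 0.263% and 14.8% of hepatocyte nuclei and 30.8% and 26.7% of background barcodes), Ctse, a cathepsin (0.911 against 47.2 CPM), and Slc35f2, a carrier (0.615 against 22.2 CPM). The remaining ones with the lowest ratios were Pcdh11x, a protocadherin (72.2 against 4.64 CPM), Grid1, a glutamate receptor (39.7 against 3.02 CPM), Srgap3, a regulator of cell protrusions (22.8 against 1.40 CPM), Lrtm1 (22.9 against 2.49 CPM) and Rdh16f2, of the retinol dehydrogenase family (164 against 21.5 CPM).

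To place the differences along the lobule, nuclei of each library were ranked by a score of 12 pericentral minus 12 periportal genes and divided into 3 zones of equal rank, 2279 nuclei each in SD and 2011, 2011 and 2010 in MASLD. A zone is a rank within its library and not a measured position, and 14.9% of SD and 16.0% of MASLD nuclei lay within 0.1 standard deviations of the score from a limit. Outside the score, 7 known pericentral genes were higher in the pericentral than in the periportal zone in both libraries. Tbx3, a pericentral transcription factor gene, stood at 97.1, 35.0 and 8.41 CPM in the pericentral, middle and periportal zone of SD and at 134, 40.9 and 6.14 CPM in MASLD, and Axin2, a Wnt target, at 19.1, 7.57 and 2.57 CPM and 18.0, 4.28 and 1.41 CPM. Of 8 periportal genes outside the score, Nrp1 went against its side in both libraries and Ass1 was flat in SD. Higher genes made up 9.56%, 11.6% and 10.2% of those measured in the pericentral, middle and periportal zones, and lower genes 3.77%, 3.8% and 3.22%. Of 39 genes with the largest differences or highest and lowest ratios that were not in the score, 39 had the same direction in all zones and 29 differed at least 2-fold in each. These genes were picked by their values over the same nuclei. A shared direction was therefore nearly fixed in advance, and the counts are a description and not a check.

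The levels of 7 named genes along the zones are given next, chosen after their values were seen, and differences between zones or libraries in their slope were not tested. Ass1 stood at 1517, 1629 and 1525 CPM from pericentral to periportal in SD and at 185, 313 and 474 CPM in MASLD, log2 ratios of -3.04, -2.38 and -1.69. Cps1 stood at 5096, 5477 and 4844 CPM in SD and 1843, 3230.1 and 3704 CPM in MASLD, ratios of -1.47, -0.76 and -0.39. Got1 stood at 581, 636 and 683 CPM in SD and 54.7, 97.8 and 204 CPM in MASLD, ratios of -3.41, -2.70 and -1.74. Ass1, Cps1 and Got1 were lowest in the pericentral zone of MASLD. Pck1, the controlling enzyme of glucose production, sloped in the same direction in both libraries (2833, 3177 and 3479.9 CPM in SD, 1026, 1530 and 2425 CPM in MASLD), with ratios of -1.46, -1.05 and -0.52. The ratios of Tat were -2.10, -1.83 and -1.10, and those of Igf1 -1.15, -0.61 and -0.24. Arg1 also sloped in SD (887, 1107 and 1153 CPM), and stood in MASLD at 467, 896 and 1298 CPM, below SD in the pericentral and above it in the periportal zone.

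The score itself also separated nuclei somewhat more in MASLD, and the size of that separation bears on these gradients. The log2 ratio of pericentral to periportal level was 3.53 in SD and 4.45 in MASLD for Tbx3 and 2.90 and 3.68 for Axin2, a difference of 0.92 and 0.78. For Ass1 the same ratio was -0.01 and -1.36, a difference of -1.35, for Got1 -1.67 and for Cps1 -1.08. How much of the gradient of these genes goes with the wider score was not tested. With zones cut from the pericentral genes alone, a setting added after seeing the data, the Ass1 ratios were -2.88, -2.21 and -1.84 and those of Cps1 -1.29, -0.72 and -0.50, in the same order. Not every lower gene was graded: Gnmt had ratios of -1.52, -1.76 and -1.49, Tkfc -2.20, -2.49 and -2.28, and Egfr -2.79, -2.85 and -2.46.

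**Figure D5:**
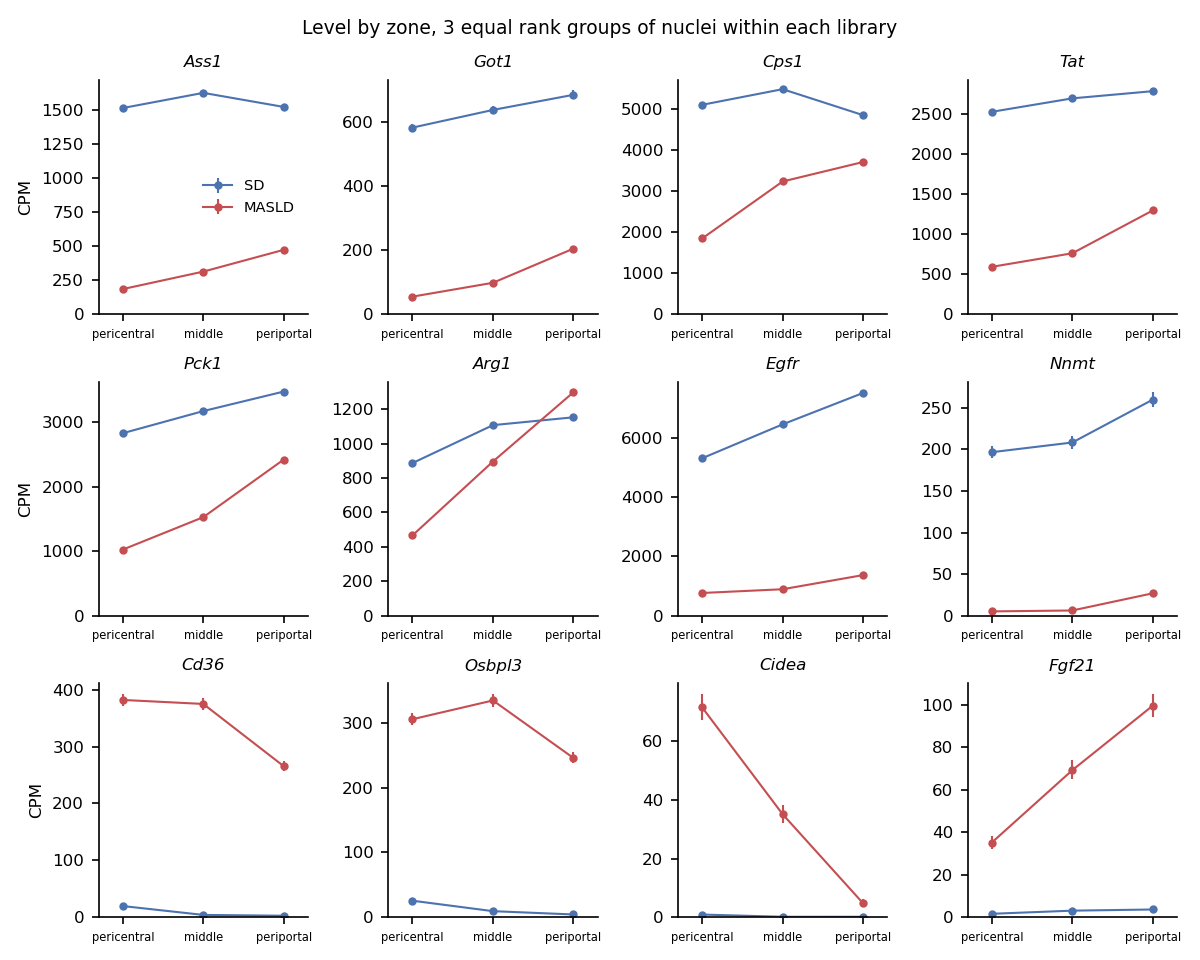
Level in CPM (y axis) of 12 genes in the pericentral, middle and periportal zone of hepatocyte nuclei (x axis) in SD (blue) and MASLD (red), with exact 95% Poisson intervals for counting error. In the MASLD library Ass1 stands at 185 CPM in the pericentral and 474 CPM in the periportal zone, and in SD it lies between 1517 and 1629 CPM, and Cidea is highest in the pericentral zone (71.5 CPM).

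Genes of fat handling had their own patterns. The Cd36 share in MASLD was not read above as expression per nucleus, and the part of background in the Apoa4 share was not tested. The same limits hold for the levels of Cd36 and Apoa4 by zone. In SD, Cd36 had 398 UMIs over all hepatocyte nuclei. Cd36 in SD was nearly restricted to the pericentral zone (19.6, 3.99 and 2.57 CPM) and stood in MASLD at 382, 375 and 265 CPM, so that the ratio was smallest where the SD level was highest (4.29, 6.55 and 6.69). Osbpl3 had the same form, 25.5, 9.32 and 4.20 CPM in SD and 306, 335 and 246 CPM in MASLD. Cidea, with 18 UMIs over all SD nuclei, was highest in the pericentral zone of MASLD, at 71.5, 35.1 and 4.74 CPM. The droplet coat gene Plin4 was highest there in both libraries, at 502, 330.4 and 86.5 CPM in MASLD and 120.3, 37.7 and 27.0 CPM in SD. Other genes were highest in the periportal zone of MASLD: Fgf21 at 35.2, 69.3 and 99.7 CPM, Apoa4 at 235, 496 and 747 CPM, Pnpla3 at 7.90, 28.9 and 72.3 CPM and Fut2 at 11.6, 32.6 and 49.7 CPM. Fabp1 was nearly even, at 2483, 2629 and 2883 CPM. Cyp7a1, the controlling enzyme of bile acid synthesis, was higher mainly in the pericentral zone, at 239, 142 and 34.0 CPM in SD and 550.3, 154 and 41.4 CPM in MASLD. By list, the lipid droplet genes had medians of 1.95, 1.87 and 1.55 in the 3 zones, with 18 of 29 higher in each, and the amino acid catabolism genes -0.46, -0.39 and -0.23, with 11, 8 and 5 of 35 lower.

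The Aza-TdC library, from animals on the same diet, gives a second MASLD-diet liver, although with the drug and against the same SD library. Egfr stood at 6391, 1006 and 848 CPM in SD, MASLD and Aza-TdC, Nnmt at 221, 12.6 and 10.5 CPM and Cd36 at 9.07, 342 and 207 CPM. Of the 40 genes with the largest differences or the highest and lowest ratios, 31 were closer in CPM to MASLD and 9 closer to SD. These genes were chosen by their SD and MASLD values. Among the 9 were Cidea (0.41, 37.8 and 0.584 CPM), Mup17 (5.06, 98.6 and 5.40 CPM), Fabp1 (485, 2662 and 929 CPM), Cps1 (5140, 2905 and 4696 CPM) and Mat1a (4033, 2337 and 3929 CPM). Drug, animal and library cannot be told apart in these values.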

How the data were processed

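The deposited files hold raw UMI counts per gene and barcode for each library, which per the file headers the authors produced in Cell Ranger 6.1.2. Chromium 3' v3.1 chemistry was used, per the labels' protocols. The submitters' processing notes also name Seurat 4.4.0, mm10 and GRCm38, with no role stated. Not given in the sources used here are the annotation release, how introns and strand were handled, and whether free RNA was removed. Doublets were not called. Of 32285 features, 32235 had an entry in the GRCm38 gene annotation from which spans were taken.

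Hepatocyte nuclei were selected by the stated rule, and groups came from the sample labels. UMIs were summed per gene and library and scaled to CPM. Ratios have exact conditional binomial intervals, levels exact Poisson intervals and shares exact Clopper-Pearson intervals, all at 95% and for counting error only. A ratio to 0 UMIs is set against a floor of 3 counts. With 1 library per group no test between groups was made. The intervals were tested on simulated counts.

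Named genes are the 10 largest CPM gains and losses, the 10 most extreme ratios on each side (ranked by the bound closest to 0, at 20 CPM or more in 1 library), the 5 largest ratios in each of 22 lists, Dnmt1, Nnt and the 9 rule genes, leaving out mitochondrial and unnamed genes. A few genes that this rule would name are left unreported. Other list members are named for their level or their place in a pathway and were chosen after their values were seen, as were genes named only in the zones. The members and lists were chosen with earlier results of these data known. Alternatives changed the filters, the scaling, the minimum count, the weight of nuclei, the thinning and the zonation score. The tools were matplotlib 3.10.9, pandas 2.3.3, scipy 1.17.1 and numpy 2.4.6 under Python 3.11.15.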

Additional observations from a re-analysis of the deposited data

Results flagged for a closer look

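Arg1, Gldc, Esr1 and Cxcl1 had log2 ratios of opposite sign in the pericentral and periportal zones, each with a counting interval that excluded 0. The differences between zones were not tested. Arg1, the last urea cycle enzyme, had -0.93 in the pericentral and 0.17 in the periportal zone. Gldc, which breaks down glycine, had -1.12 and 0.43. Esr1, the estrogen receptor gene, had -0.51 and 0.53. Cxcl1, a neutrophil attractant gene, had -0.81 and 0.24.

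Barcodes above the mitochondrial limit were 2.92% (2.53 to 3.34) of MASLD barcodes and 0 of 7139 in SD, which by the floor of 3 counts allows up to 0.0420%. Barcodes under the UMI minimum were 6.22% (5.66 to 6.82) of MASLD barcodes and 0 of 7139 in SD. The minimum of 1546 UMIs is the lowest total in the SD library, so the 0 there is set by the rule and no difference is read from it.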

How the results depend on the processing

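No paired analysis was possible because each group had 1 library. The 14 alternatives to the main setting, of which the selection of nuclei with 0 hemoglobin UMIs and that of genes with a span of at least 10 kb were added after seeing the data, turned the direction of no named gene past 2-fold. For some of them this was fixed in advance. The minimum counts and the span limit leave the ratio of a gene as it was. The scaling settings shift every log2 ratio by -0.14 or -0.066, too little to turn a gene past 2-fold. The count of 1759 higher genes went to 1075 with at least 200 UMIs, 4522 with at least 1 UMI, 1167 after thinning and 1096 with spans of at least 10 kb. The count of 577 lower genes went to 358 with at least 200 UMIs and 2397 with at least 1 UMI. The median log2 ratio of all genes (0.16) was 0.017 with median-ratio scaling, 0.089 without the 50 most abundant genes, 0.17 with at least 20 UMIs, 0.13 with at least 200 UMIs, 0.13 with at least 1 UMI, 0.14 with at most 1% mitochondrial UMIs, 0.13 after thinning and 0.12 with spans of at least 10 kb. Of 22 lists, the cytoskeleton median left its interval, with 0.40 for spans of at least 10 kb. Of 127 named genes past 2-fold, 15 came within 2-fold in at least 1 alternative. Of 354 ratios in zones recomputed with other scores, 108 left their counting interval and 0 of those past 2-fold turned. Without thinning, 76 of 80 shares of nuclei left their interval, since deeper nuclei show more genes. Depth limits genes with few UMIs per nucleus, and intervals cover counting error only.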

Other observations

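Cytochrome P450 genes, 99 in the files, summed to 8015 CPM in SD, 11073 CPM in MASLD and 14994 CPM in Aza-TdC hepatocyte nuclei. The 22 major urinary protein genes, which have near-identical copies, summed to 733, 2066 and 1038 CPM. Errfi1, which encodes an inhibitor of the epidermal growth factor receptor, was among the most abundant genes and went from 5426 CPM (SD) to 5303 CPM (MASLD), a log2 ratio of -0.03, beside the Egfr ratio of -2.67. This gene was chosen after its values were seen.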
